A study of Homo sapiens with 8 samples.

Results

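The genes of the retinoic acid receptors RARA, RARB and RARG and of the retinoid X receptors RXRA, RXRB and RXRG were examined for open chromatin in U-937, a human acute myeloid leukaemia cell line with monocytic features. Every called region that overlapped the annotated gene body or the 50 kb on either side of it was counted as belonging to the gene (hg38, GENCODE release 44). This gave 149 of the 161291 regions called anywhere in the genome: 26 for RARA, 41 for RARB, 19 for RARG, 30 for RXRA, 14 for RXRB and 19 for RXRG. The assay was ATAC-seq, which uses a transposase to insert sequencing adapters into accessible DNA. The 4 groups were compared after 24 h: the vehicle DMSO, all-trans retinoic acid (ATRA) at 0.1 µM, Corin at 0.1 µM, and both compounds together at 0.1 µM each, called the combination below. Each group had 2 samples, which the authors had combined into 1 peak list, so the values below carry no replicate error and none of the differences could be tested. All groups come from the same cell line, and the sources do not say whether the samples of a group were separate cultures.

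Retinoic acid receptors are ligand-activated transcription factors that bind DNA as pairs with a retinoid X receptor, typically at hexamers arranged as direct repeats. Without ligand the pair recruits co-repressors and histone deacetylases, and ATRA exchanges these for co-activators. RARB carries such an element at one of its own promoters and is a classical retinoic acid target, whereas a retinoic acid receptor fusion protein drives acute promyelocytic leukaemia, the disease in which ATRA is a standard drug. Corin inhibits the LSD1 demethylase and the histone deacetylases of the CoREST co-repressor complex.

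Direct repeat matches at receptor starts and region summits are shown because they are the sequences to which receptor pairs of this kind can bind. The hexamer searched was A or G, then G, then G or T, then TCA, repeated in the same direction after a spacer of 1, 2 or 5 bases (DR1, DR2 and DR5), on both strands. Within 1 kb of an annotated transcript start of the 6 genes, 3 DR5 matches were found. A DR1 match lay at a region summit in an RXRG intron. Capitals mark the repeats, and the plus strand of hg38 is printed.
RARB DR5, chr3:25428204-25428232: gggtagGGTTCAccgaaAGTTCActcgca
RARA DR5, chr17:40341647-40341675: caggcgAGTTCAgcgagAGTTCAgccgca
RXRB DR5, chr6:33195465-33195493: acctgcAGGTCActcaaAGGTCAcagctc
RXRG DR1, chr1:165426938-165426966: gacgtcacAGTTCAaAGGTCAtcagacag
The RARB repeat lies in sequence annotated as untranslated exon of RARB, 53 to 37 bp before the start of transcript RARB-201. It was the sole DR5 match of the 3 that lay inside a called region. The RARA and RXRB repeats lie in introns of these genes, and no list had a called region over them. Among 35116 RefSeq promoters of 300 bp (250 before and 50 after the start, hg38), 31 held a DR5 match (0.0883%), and of 13 such promoters of the 6 receptors 1 did, that of RARB.

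Further regions are shown as 120 bp of plus-strand sequence around the strongest summit, because they differed in rank or in presence between lists with and without ATRA. Capitals mark matches to TGANTCA (AP-1, a dimer of Jun and Fos family factors), TTGCNNAA (C/EBP, factors of granulocyte and monocyte differentiation) and GAGGAAGT (PU.1, a master regulator of myeloid cells). The printed stretch is shorter than the 200-bp window used for the shares below. In that window the RXRG intron also held PU.1 and C/EBP matches, and the RXRA region an AP-1 match, outside the printed bases.
RARB 9.3 kb upstream, chr3:24678534-24678653: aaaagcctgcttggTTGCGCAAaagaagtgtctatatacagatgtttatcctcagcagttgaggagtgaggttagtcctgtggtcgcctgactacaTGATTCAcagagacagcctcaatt
RXRG downstream, chr1:165398089-165398208: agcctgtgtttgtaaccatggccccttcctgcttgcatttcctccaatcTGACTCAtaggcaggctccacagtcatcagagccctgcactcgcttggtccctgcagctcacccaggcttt
RXRG intron, chr1:165424597-165424716: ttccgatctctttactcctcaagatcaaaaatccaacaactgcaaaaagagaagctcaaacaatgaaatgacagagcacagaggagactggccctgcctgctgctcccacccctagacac
RARG downstream, chr12:53209036-53209155: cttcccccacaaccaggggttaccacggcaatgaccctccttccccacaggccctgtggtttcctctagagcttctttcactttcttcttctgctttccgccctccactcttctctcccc
RARA 33.9 kb upstream, chr17:40275261-40275380: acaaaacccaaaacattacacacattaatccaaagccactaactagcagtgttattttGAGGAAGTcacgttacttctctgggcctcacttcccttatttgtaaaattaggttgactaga
RXRA downstream, chr9:134459326-134459445: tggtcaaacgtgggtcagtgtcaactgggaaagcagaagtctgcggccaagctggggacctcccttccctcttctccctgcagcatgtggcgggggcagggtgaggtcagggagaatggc
Across all 149 regions, 200-bp windows at the strongest summit held AP-1 in 10.7%, PU.1 in 8.72%, C/EBP in 14.1% and GFI1 (AATCANNGC) in 3.36%. The shares over all 161291 regions were 12.2%, 6.73%, 14.5% and 2.31%. DR1 was found in 1 of the 149 windows, against 0.0719% of all windows, and DR2 and DR5 in 0, against 0.170% and 0.0905%. The RARB repeat lay 78, 94, 40 and 105 bp from the nearest summit called with DMSO, ATRA, Corin and the combination. The window of its region was centred on the summit of the combination, the strongest of the 4, and did not hold the whole repeat.

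The DMSO, ATRA, Corin and combination lists held 116563, 113914, 101851 and 94917 regions, and the number of reads behind them is unknown. Because the lists differ in length and background, the fold of a peak over its local background (the authors' value) was turned into a percentile. A region's percentile is the rank of its highest fold among the 66303 regions called in all 4 lists, taken within that list, and a difference of at least 20 percentile points is called a shift. The pileup, the count stacked at a summit, was recovered from the fold and the p of each peak. The unit counted is not given in the sources used here. The pileup had medians of 234, 269, 213 and 257 over those regions. Among monocytic marker genes, SPI1, LYZ, CD33, CD68 and CSF1R had a called region at a start in all 4 lists and MPO in none. Among 4 genes of other lineages, CD3E, ALB and KRT5 had none and GATA1 had a weak one with DMSO and Corin.

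**Figure D1:**
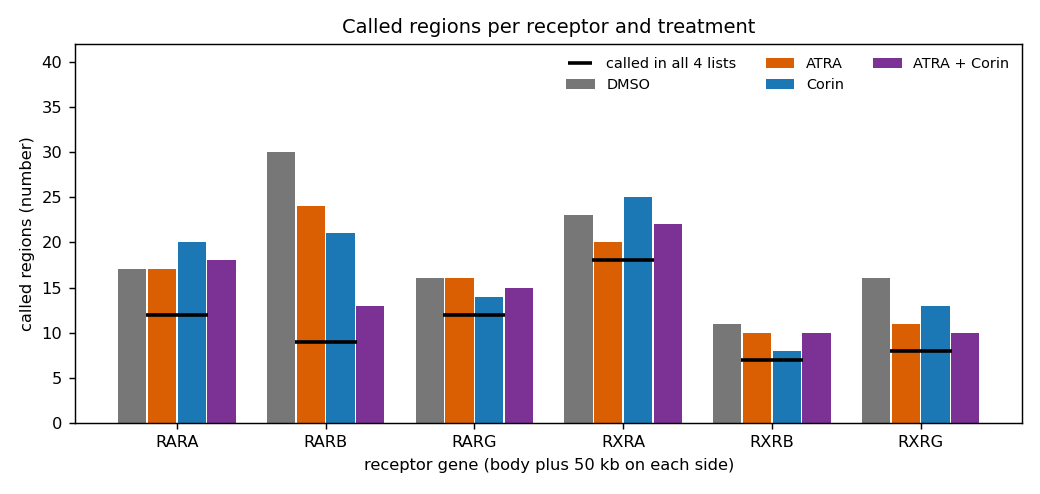
Number of called regions in the window of each receptor gene (gene body plus 50 kb on each side), one bar per peak list, with a black mark at the number called in all 4 lists. The RARB bars fall from 30 with DMSO to 13 with the combination, while the RARA bars lie between 17 and 20.

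The receptor windows held 113 regions with DMSO, 98 with ATRA, 101 with Corin and 88 with the combination. Of the 149 regions 66 were called in all 4 lists (44.3%, against 41.1% of all regions), and 45 in a single list (30.2%, against 33.6%). The windows of RARA, RARG, RXRA, RXRB and RXRG held 13.1 to 17.5 regions per 100 kb, against 5.22 for the genome. RARB, whose gene body of 910 kb is the longest of the 6, held 4.06 per 100 kb. The counts of RARA were 17, 17, 20 and 18 in the order DMSO, ATRA, Corin and combination, and those of RARG were 16, 16, 14 and 15. For RXRA the counts were 23, 20, 25 and 22, and for RXRB 11, 10, 8 and 10. RXRG had 16, 11, 13 and 10. The 4 lists differed most for RARB, with 30, 24, 21 and 13 regions.

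Gains and losses of regions in the receptor windows lay near those of the whole genome. With ATRA, 17 regions were called that DMSO lacked (17.3% of those called with ATRA, background 23.3%), and 32 DMSO regions were not called (28.3%, background 25.4%). Corin had 17 such gains (16.8%, background 17.8%) and 29 losses (25.7%, background 28.4%). The combination had 16 gains (18.2%, background 16.6%) and 41 losses (36.3%, background 31.6%) over DMSO. Against ATRA alone it had 13 gains (14.8%, background 15.4%) and 23 losses (23.5%, background 28.7%). Against Corin alone it had 13 gains (14.8%, background 20.4%) and 26 losses (25.7%, background 25.1%). The shares lay on both sides of their backgrounds, and a region that is not called may still be open below the calling threshold. Single genes differed more than the pooled shares. With the combination over DMSO, RARB lost 20 of 30 regions and RXRG 8 of 16. The losses were 5 of 17 for RARA, 4 of 23 for RXRA, 2 of 16 for RARG and 2 of 11 for RXRB.

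Shifts in rank were also about as frequent as elsewhere. Of the 66 regions called in all 4 lists, 7 shifted up with ATRA over DMSO (background 12.5%) and 6 down (background 10.3%). For Corin over DMSO the counts were 4 up (background 6.37%) and 3 down (background 7.58%), and for the combination over DMSO 9 up (background 9.06%) and 8 down (background 9.93%). The combination was shifted up over ATRA in 8 regions (background 9.6%) and down in 4 (background 12.2%), and over Corin up in 6 (background 8.31%) and down in 3 (background 7.7%). Adding ATRA can be read from 2 comparisons that share no list, ATRA over DMSO and the combination over Corin. In both of them 6 regions shifted up (background 5.11%) and 3 shifted down (background 3.43%): 3 in the RARB window, 3 in that of RARG, 2 in that of RXRG and 1 in that of RARA. Across the 66 regions the 2 shifts with ATRA correlated with r = 0.797, against 0.619 over all 66303 regions. Their signs matched in 69.7% and 69.6%. The receptor windows contribute several regions each, so the 66 points are not independent.

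**Figure D2:**
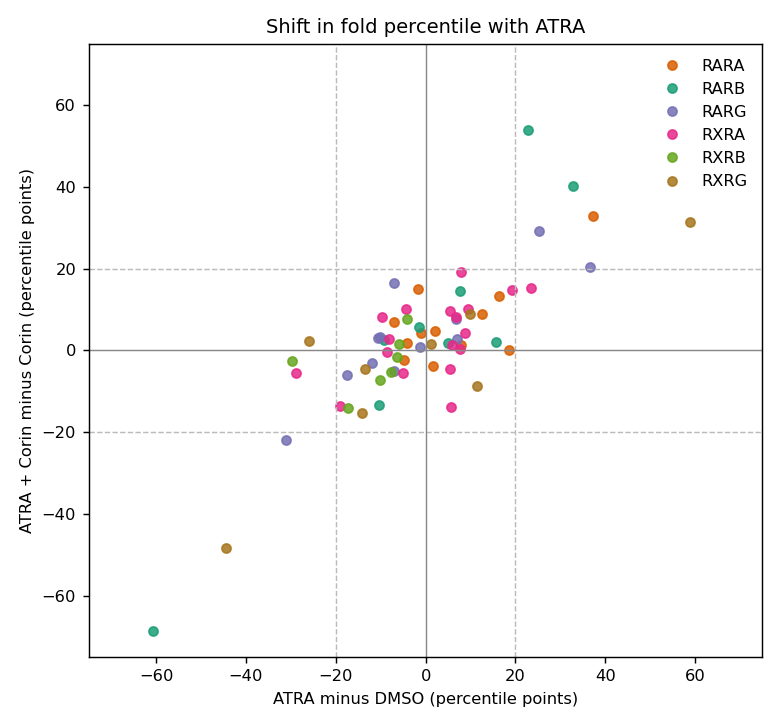
Change in fold percentile when ATRA was added to DMSO (horizontal) and to Corin (vertical), in percentile points, for the 66 regions of the receptor windows called in all 4 lists, coloured by gene. Dashed lines mark shifts of 20 points; RARB, RXRG, RARG and RARA regions lie beyond both lines, and no RXRA or RXRB region does.

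By pileup, the largest difference between lists with and without ATRA was at the internal start of RARB, the start from which the retinoic acid-inducible RARB2 form is made and which holds the DR5 printed above. The region at chr3:25427136-25428917 had a fold of 6.23 with DMSO, 12.3 with ATRA, 3.54 with Corin and 11.8 with the combination. Its percentiles were 30.4, 53.1, 13 and 67.1. Both lists with ATRA were therefore above both lists without it, and Corin alone was the lowest. The recovered pileup separated the lists further, with values of 85, 627, 49 and 666 in the same order. Relative to the median pileup of each list this was 0.363, 2.33, 0.230 and 2.59 times. The fold understates that difference because the local background also differed, at 12.8, 50.1, 13.1 and 55.5. By pileup the percentiles were 12.9, 77.8, 5.38 and 77.9, so that ATRA was 64.8 points above DMSO and the combination 72.5 points above Corin, while the combination and ATRA alone differed by 0.133.

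**Figure D3:**
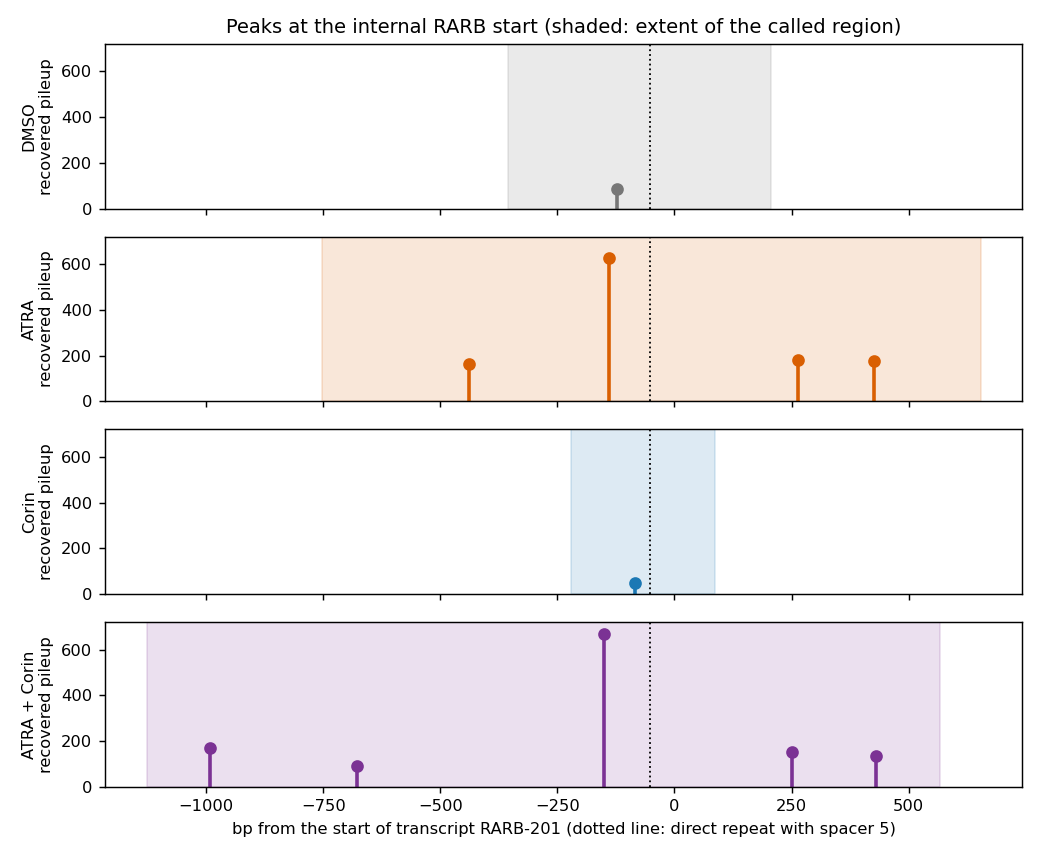
Peaks at the internal RARB start in the 4 lists, as distance of each summit from the start of transcript RARB-201 in bp (horizontal) against the recovered pileup (vertical). Shading is the extent of the called region and the dotted line the DR5; DMSO and Corin have 1 low summit each, and ATRA and the combination have a summit at 627 and 666 with further summits on both sides.

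The called stretch at this start was also wider with ATRA. It measured 564 bp with DMSO and 308 bp with Corin, each with 1 summit. With ATRA it measured 1407 bp and had 4 summits, and with the combination it measured 1696 bp and had 5. The main summit stayed within 65 bp in the 4 lists. The flanking summits with ATRA had pileups of 163 to 183, each above the main summit of DMSO.

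A second internal RARB region, at chr3:25460777-25461653 over the start of the noncoding transcript RARB-219, was called with ATRA at a fold of 10.7 and with the combination at 3.48. It was called neither with DMSO nor with Corin. Of the remaining RARB starts, the most upstream one (24687887) had weak regions with ATRA and Corin, at folds of 3.16 and 3.54. The coding start at 24829323 had no called region in any list. The internal start was thus the single coding RARB start called in all 4 lists.

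In front of RARB, 2 neighbouring regions differed from each other. The region 9.3 kb upstream (chr3:24678097-24678927, in an intron of the noncoding gene THRB-AS1) had folds of 16.3, 7.92, 16.8 and 4.98 and pileups of 523, 95, 479 and 75. Its percentiles were 88.9, 28.1, 91.2 and 22.4 by fold and 76.2, 15.4, 74.5 and 12.0 by pileup. Both lists without ATRA ranked it among their strongest regions and both lists with ATRA among the weaker ones, with shifts of -60.7 points for ATRA over DMSO and -68.8 points for the combination over Corin. Its summit holds the AP-1 and C/EBP matches printed above. The region 7.2 kb upstream (chr3:24680361-24680951, over a noncoding exon of THRB-AS1) was named after its values were seen. Its folds were 5.53, 13, 4.10 and 10.3, and its percentiles 24.3, 57.2, 18.9 and 59.1. Its pileups, however, were 181, 164, 118 and 155, and by pileup ATRA stood 8.04 points below DMSO, so its direction differed between the measures.

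Toward the 3′ end of RARB the lists differed in the number of weak regions. The nearest coding gene there was TOP2B from the region at chr3:25552013 onward. Regions of the window beyond the end of RARB lay in introns of TOP2B. RARB was the nearest coding gene for 20 of the 41 regions of its window. From 100 kb before the end of the gene to the end of the window, 26 of the 41 RARB regions lay, a stretch chosen after the values were seen. There 19 were called with DMSO, 15 with ATRA, 15 with Corin and 4 with the combination. All 4 of the combination were regions called in every list. The 15 DMSO regions that the combination lacked had folds of at most 5.29. Over the whole RARB window, 20 of the 25 DMSO regions in the weaker 50% of the DMSO list were not called with the combination (80%, background 59.2%). A further intronic region, chr3:24773837-24774291, ranked at 54.7 with DMSO and 44.3 with ATRA but at 26.4 with Corin and 13 with the combination. By pileup its shift with Corin was -13.4 points.

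RARA encodes the main retinoic acid receptor of myeloid cells, and both its first and its second coding start cluster had a called region in all 4 lists. The region over the coding start at 40318281 (chr17:40317755-40318751) had folds of 8.87, 10.7, 7.32 and 9.26 and percentiles of 50.9, 43.9, 45.8 and 52.8. Its pileups were 1211, 1406, 1163 and 1671, at percentiles of 93.7 to 95.3. Next to it a short region at chr17:40317453-40317648 was called with ATRA alone, at a fold of 2.77 and a pileup of 272. The upstream start, at the 5′ end of the gene, is flanked by a region at chr17:40307281-40308251 with folds of 6.78, 8.83, 3.52 and 5.65. Its percentile with Corin was 12.8 against 35.0 with DMSO, a shift of -22.3 points that was -14.8 by pileup. The third coding start cluster (40341388 to 40342399), beside the RARA DR5 shown above, had no called region in any list.

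The RARA region with the largest shift up with ATRA lay far from its starts. At chr17:40274969-40275862, in an intron of WIPF2 33.9 kb upstream, folds were 5.07, 13.1, 2.62 and 6.90 and percentiles 20.6, 57.8, 4.35 and 37.1. It held the PU.1 match printed above. Its pileups were low in every list (69, 132, 36 and 102), and by pileup the shifts were 17.4 points over DMSO and 19.4 points over Corin. Inside RARA, an intronic region with an AP-1 match at chr17:40314547-40314967 was called with Corin (fold 4.59) and the combination (2.62) and not in the lists without Corin. Further intronic regions showed the pattern of ATRA or of Corin instead: chr17:40323706-40324490 was called with ATRA (3.26) and the combination (2.61), and chr17:40333818-40334679 ranked at 14.3 and 16.0 without Corin and at 36.9 and 33.0 with it. The region at chr17:40303051-40303647, over CDC6, ranked at 5.49, 21.9, 27.2 and 40.5. Its pileups were 64, 133, 89 and 221, and the combination was the highest of the 4 by both measures.

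RARG encodes the receptor known mainly from skin and from haematopoietic stem cells. It was the nearest coding gene for 3 of the 19 regions of its window. A region just beyond the 3′ end of RARG, chr12:53208632-53209582, had ITGB7 as the nearest coding gene, with the start 1814 bp from the summit. The folds of this region were 4.11, 11.6, 3.60 and 6.47 and its pileups 170, 655, 146 and 363. Percentiles were 12.6, 49.1, 13.6 and 34.1 by fold and 37.5, 79.0, 37.6 and 61.1 by pileup. ATRA alone was the highest, the combination lay between, and DMSO and Corin were within 1.0 points of each other. The region over the upstream RARG starts (chr12:53232213-53233454) had folds of 4.61, 10.3, 4.10 and 8.49 and percentiles of 16.5, 41.7, 18.6 and 47.9. Its pileups were 106, 129, 81 and 188, which gave 4.19 points for ATRA over DMSO and 20.9 points for the combination over Corin. The region over the other coding RARG start (chr12:53219705-53221972) was much higher in pileup, at 888, 1242, 981 and 1334, and its percentiles stayed between 34.5 and 41.9.

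**Figure D4:**
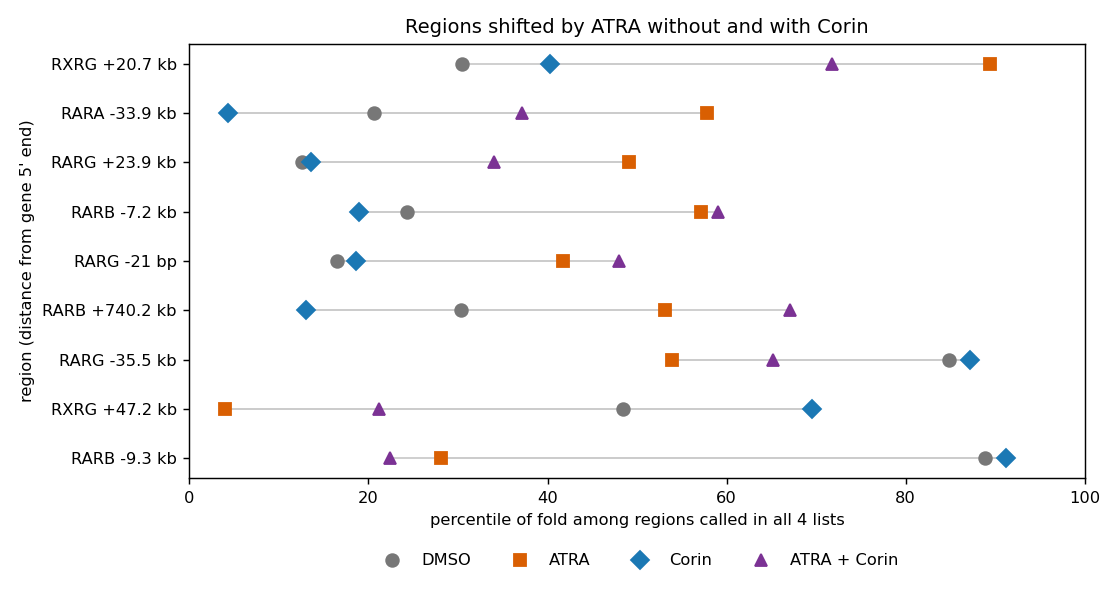
Fold percentile in each of the 4 lists (horizontal, 0 to 100) for the 9 regions of the receptor windows that shifted by at least 20 points in one direction both with ATRA over DMSO and with the combination over Corin. Rows give the gene and the distance from its 5′ end; in the upper 6 rows both lists with ATRA lie to the right of both lists without it, and in the lower 3 rows to the left.

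Within RARG an intronic region (chr12:53217264-53217757) was called with DMSO at a fold of 3.71, with Corin at 5.17 and with the combination at 3.64. The ATRA list lacked it, although its pileups elsewhere were 513 to 877. A promoter region of the neighbour ESPL1 (chr12:53267373-53268902), which encodes separase, ranked at 84.9, 53.9, 87.2 and 65.2. By pileup the lists were closer, with percentiles of 78.7, 69.0, 80.3 and 63.4. Promoter regions as a class had a median change of -5.83 points with ATRA over DMSO, against 0.341 for other regions, and the part of this in the result was not tested.

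RXRA encodes the retinoid X receptor that is most widely expressed. All 30 regions of its window had RXRA as the nearest coding gene start, and 18 were called in all 4 lists, the largest number among the 6 genes. The main start region (chr9:134325749-134326589) had folds of 8.69, 10.0, 9.40 and 11.8 and percentiles of 49.6, 40.0, 59.0 and 67.2. Its pileups were 360, 305, 433 and 664. The combination was thus the highest and ATRA the lowest by rank. The adjoining region (chr9:134326813-134327508) ranked at 14.8, 20.7, 24.9 and 26.2, and the region over an internal noncoding start (chr9:134371348-134373227) at 61.3, 52.6, 73.6 and 73.2. In each of these regions the percentiles of the lists with Corin were above those of the lists without it.

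RXRA regions as a group ranked higher with the combination, and so did those of RARA. For RARA 10 of 12 had a higher percentile than with DMSO, with a median change of 8.19 points. By pileup this held for 11 of the 12 RARA regions, with a median of 11.5. In the remaining genes the median changes by fold percentile lay between -2.84 and 3.31 points. Of the 18 RXRA regions called in all 4 lists, 14 had a higher percentile with the combination than with DMSO, with a median change of 10.9 points. Over all shared regions 52.2% were higher and the median change was 0.462. By pileup 11 of the 18 were higher and the median change was 2.68 points. The intronic region at chr9:134343595-134344755 contributed with percentiles of 8.62, 14.1, 26.2 and 35.8. The gene-body region with the highest fold in any list, chr9:134365567-134366876, also in an intron, ranked at 63.8, 73.2, 68.9 and 79.0. The region over the internal noncoding start had a higher fold with Corin, at 12.1 against 11.2.

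Downstream of RXRA, 3 regions differed between the lists. The region at chr9:134459172-134459574 was called with ATRA at a fold of 8.73 and a pileup of 410 and with the combination at 5.09 and 169, and it was called neither with DMSO nor with Corin. Of the 83 receptor regions not called in all 4 lists it had one of the highest −log10 p with ATRA, at 234. The region at chr9:134449252-134449947 ranked at 80.9 and 86.7 without Corin and at 65.2 and 51.3 with it, and its pileups were 310, 223, 195 and 153. For the combination over ATRA its shift was -35.4 points by fold and -9.97 by pileup. That at chr9:134484246-134484901 was highest with DMSO, at a percentile of 38.2, and ranked at 9.30, 13 and 7.57 with the treatments. Its pileups of 98, 45, 49 and 47 were low, and by pileup none of its shifts reached 20 points. Near the most upstream RXRA start, that of the noncoding transcript RXRA-203, a weak region was called with DMSO at a fold of 3.91 and in no other list.

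RXRB lies in the major histocompatibility complex, and most regions of its window belong to neighbouring genes: RXRB was the nearest coding gene for 1 of 14. Its start region, shared with the divergent zinc transporter gene SLC39A7 (chr6:33199778-33201381), had folds of 9.20, 11, 9.59 and 9.63 and percentiles of 53.3, 45.7, 60.1 and 54.9. The lists differed there by less than 20 points. The one region inside the RXRB body (chr6:33197509-33197816) had folds of 6.0, 4.86, 3.84 and 2.40 and pileups of 542, 482, 332 and 311. It was highest with DMSO and lowest with the combination by fold, by percentile (28.3, 11, 16.2 and 2.06) and by pileup. All 7 RXRB regions called in all 4 lists had a lower percentile with ATRA than with DMSO, with a median change of -7.64 points. The same median was -7.01 for RARG and -6.08 for RXRG, and 1.91, 5.06 and 5.63 for RARA, RARB and RXRA. Over all shared regions 44.9% had a higher percentile with ATRA and the median change was -1.45, and over promoter regions it was -5.83. By pileup 5 of the 7 were lower, with a median of -5.62. A region at the RING1 start (chr6:33207438-33209023) ranked at 53.5 and 43.4 without Corin and at 80.2 and 73.0 with it, and by pileup the shift with Corin over DMSO was 10.6 points.

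RXRG encodes the retinoid X receptor with the most restricted expression, chiefly in brain and muscle. Its coding start had a called region with DMSO alone, at a fold of 2.41 and a −log10 p of 6.37. The intronic region at chr1:165424203-165425298, over the start of the noncoding transcript RXRG-203, had folds of 6.23, 20.6, 6.56 and 12.8 and pileups of 144, 592, 155 and 374. Percentiles were 30.5, 89.4, 40.3 and 71.8 by fold and 31.2, 76.2, 39.6 and 62.1 by pileup. The 2 lists with ATRA were above the 2 without it by both measures, and ATRA alone was above the combination. This was the largest rise with ATRA over DMSO among the 66 regions by fold percentile, at 59.0 points. The DR1 printed above lay in another intronic region, called with DMSO at a fold of 2.82 and in no other list.

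Downstream of RXRG a region had the opposite order. At chr1:165397966-165398317 folds were 8.53, 3.36, 11.3 and 4.84 and pileups 423, 123, 546 and 226. Percentiles were 48.4, 3.93, 69.5 and 21.2 by fold and 70.1, 22.9, 77.9 and 45.8 by pileup. Corin alone was the highest and ATRA alone the lowest, and the combination lay below DMSO and above ATRA. Its summit holds an AP-1 match, as do those of 10.7% of the receptor regions, against 12.2% of all regions. Among these are the RARB region 9.3 kb upstream and the RXRA region chr9:134459172-134459574, which was called only in the 2 lists with ATRA. The ESPL1 promoter region, also lower with ATRA, held no AP-1 match. The most distant upstream region (chr1:165482034-165483103) ranked at 85.4, 59.5, 76.4 and 78.8. Among the weaker RXRG regions, 2 were called with DMSO and ATRA and in neither list with Corin, at chr1:165440652-165441469 (folds 3.55 and 9.25) and chr1:165464062-165464397 (2.54 and 6.13). Over all receptor windows 3.36% of regions had this pattern, against 5.14% of all regions. In the RXRG window 2 others were called with DMSO and Corin and in neither list with ATRA, at chr1:165452401-165452669 and chr1:165458746-165459033. That pattern held for 5.37% of receptor regions, against 4.24% of all regions.

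**Figure D5:**
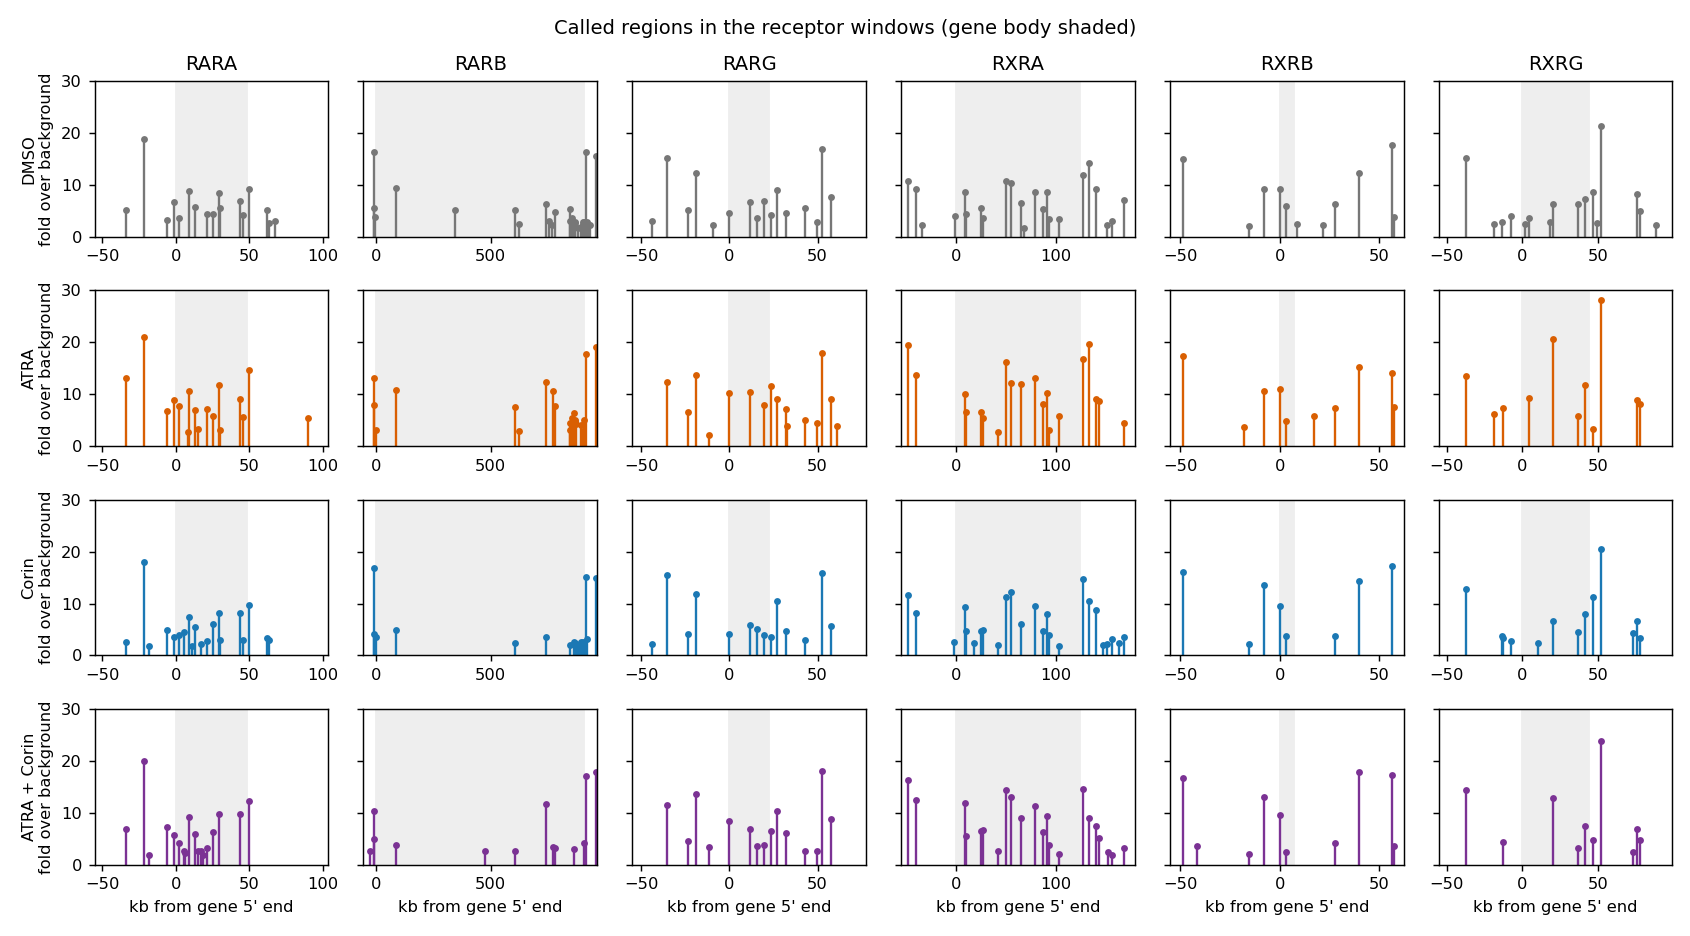
Fold over local background (vertical, linear) of every called region of the 6 windows against its distance from the 5′ end of the gene in kb (horizontal), one row per list, with the gene body shaded. The RXRG intronic region reaches 20.6 with ATRA and 6.23 with DMSO, and the crowd of low regions near the 3′ end of RARB is nearly absent with the combination.

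Ranking by pileup gave no more shifts than ranking by fold in any comparison, but several were at regions that did not shift by fold. With ATRA over DMSO 3 of the 66 regions shifted up by pileup (background 7.54%) and 5 down (background 6.15%). The 3 were the RARB internal start, the RARG region beyond the 3′ end and the RXRG intron. Each of them was also shifted up with the combination over Corin, which over all shared regions held for 3.39%. Of the 5, the RARB region 9.3 kb upstream and the RXRG region downstream were also shifted down with the combination over Corin, against 2.81% of all shared regions. Also among the 5 were regions named after their values were seen. The RXRA intronic region chr9:134409441-134410304 changed by -24.6 points by pileup and -5.07 by fold. In the RXRB window, chr6:33172511-33173304 changed by -22.3 points by pileup and -6.03 by fold. With Corin over DMSO, 1 region shifted up by pileup (background 4.36%) and 0 down (background 3.94%). That region, chr17:40311465-40312135 in a RARA intron, rose by 20.1 points by pileup and 8.14 by fold. For the combination over DMSO the counts were 6 up (background 6.65%) and 6 down (background 7.45%). Over ATRA they were 6 up (background 4.85%) and 0 down (background 5.75%), and over Corin 6 up (background 5.2%) and 2 down (background 5.67%). Most of the 6 regions up over ATRA changed by less than 20 points by fold.

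Transcript starts differed between the receptors in whether a region was called at them. Of 28 start clusters of the 6 genes, 15 had a called region within 1 kb in some list and 11 in all 4. Of the 15 clusters with a coding transcript, 9 had one in some list and 7 in all 4. RARA, RARG, RXRA and RXRB each had at least 1 coding start called in all 4 lists, and so did RARB at its internal start, whereas RXRG had none. Summits of the 66 shared regions moved by a median of 24 bp between the lists, against 19 bp over all shared regions, and 9 moved by more than 200 bp (13.6%, background 10.7%).

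Genes of the proteins that work with these receptors were described in the same way. The 12 co-regulator genes, which include the co-repressor NCOR1, the deacetylase HDAC3 and the co-activators NCOA1, NCOA2, NCOA3, EP300 and CREBBP, held 217 regions, of which 105 were called in all 4 lists. With ATRA over DMSO 12 of these shifted up (11.4%, background 12.5%) and 12 down (11.4%, background 10.3%), with a median change of 0.706 points against -1.45 over all shared regions. With Corin over DMSO 12 shifted up (11.4%, background 6.37%) and 5 down (4.76%, background 7.58%), with a median of 0.331 against 0.338. With the combination over DMSO 12 shifted up (11.4%, background 9.06%) and 6 down (5.71%, background 9.93%), with a median of 3.16 against 0.462. The 13 genes of nuclear receptors that pair with retinoid X receptors or belong to the same branches, such as VDR, PPARG, NR1H3 and NR4A1, held 298 regions, 159 of them called in all 4 lists. Against the same backgrounds, ATRA shifted 25 up (15.7%) and 11 down (6.92%), with a median of -1.82. Corin shifted 7 up (4.40%) and 6 down (3.77%), with a median of 0.655, and the combination 17 up (10.7%) and 7 down (4.40%), with a median of 2.16. The strongest start region of NR4A1, an early-response orphan receptor, ranked at 38.9, 73.8, 34.7 and 40.8, so that ATRA alone was the highest. The strongest start region of TBL1XR1, a subunit of co-repressor complexes, ranked at 33.3, 13.6, 47.8 and 41.5, with ATRA alone the lowest. ATRA alone was also the lowest at most other co-regulator starts. Among these were NCOA1 (82.5, 52.9, 90.6 and 81.3) and NCOR1 (72.6, 50.5, 80.4 and 69.1). Promoter regions as a class had a median change of -5.83 points with ATRA over DMSO. The start regions given here were named after their values were seen.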

How the data were processed

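ATAC-seq of U-937 cells in 8 samples, 2 in each of 4 groups, was analysed from the deposited peak lists, 1 for each group, made by the authors from both samples together. Per the submitters' processing notes, cutadapt, Bowtie2, SAMtools, Picard and MACS2 were used with the hg38 build; versions and settings are not given in the sources used here, nor is read depth. In the deposited lists, column 7 is a fold, the ratio of peak pileup to local background. The deposited p and q columns are −log10 values, and the summit column, another deposited measure, is an offset in bp from the peak start. These are the authors' values for single peaks and were used to describe, rank or filter peaks within a list. All peak ends lay within the hg38 lengths of the 24 chromosomes tested.

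Overlapping peaks were merged within each list and then over the lists into union regions, with presence defined by an overlap of at least 1 bp (Python 3.11.15, pandas 2.3.3, numpy 2.4.6). Overlap counts were checked with bedtools 2.31.1 and agreed in 4 of 4 lists. Pileup and background were recovered from p and fold, taking p as a Poisson tail and adding 1 to both terms of the fold. The recovered pileup was whole, with a tolerance of 0.05, in 99.97% of DMSO, 99.98% of ATRA, 99.98% of Corin and 99.96% of combination peaks. The scripts were tested on simulated data. Backgrounds printed beside counts are the same counts over all regions of the genome.

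The receptors, gene lists, motifs and alternatives were chosen with earlier results of these data known. Regions named were, for each receptor, those within 1 kb of its transcript starts, the 3 highest by −log10 p of those not called in all 4 lists, the 3 with the largest shifts, those with a direct repeat at the summit and the one with the highest fold in the gene body. Not all of them are printed. A gene of the co-regulator list and a gene of the other-lineage markers are not reported here and are left out of those counts. Regions outside this rule are described as named after their values were seen, and so was the recovered pileup chosen as a second measure. Alternatives were windows of 10 kb or of the gene body, a −log10 q of at least 5, an overlap of 50%, merging within 150 bp, lists of equal length, ranks by −log10 p, by pileup or within GC classes, a shift of 10 points, centred fold ratios, and wider motif windows.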

Additional observations from a re-analysis of the deposited data

How the results depend on the processing

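No paired analysis was possible because each deposited list combines both samples of its group and no result comes from a test; leaving out a sample was not possible for the same reason. Of 138 values summarising a comparison under an alternative, 102 stayed within the 95% Wilson interval of the main share or within 1.5 times the main count and 36 moved. For single named regions 725 changes between lists were compared, whether or not they were shifts in the main ranking. Of these, 633 stayed on the same side of the limit, and this number includes changes that were below it both times. Another 34 passed the limit. Of those that were shifts in the main ranking, 56 dropped below the limit and 2 reversed. The limit was 20 points, or a ratio of 1.5 for centred fold ratios. Both reversals were at the RARB region 7.2 kb upstream ranked by recovered pileup, with -8.04 points for ATRA over DMSO and -6.48 points for the combination over DMSO. Within gene bodies alone, the loss with ATRA over DMSO was 20%, and regions shifted up and down numbered 3 and 0 for ATRA, 1 and 1 for Corin, 5 and 4 for the combination over DMSO, 4 and 2 for the combination over ATRA, and 3 and 0 for the combination over Corin. With a shift of 10 points these counts were 13 and 16, 13 and 11, 25 and 13, 19 and 11, and 15 and 8, in the same order. Ranking by −log10 p gave 2 regions up with Corin, and ranks within 10 classes of GC content gave 5 down with Corin. Centred ratios of at least 1.5 gave 10 down with Corin, 8 down for the combination over ATRA and 5 down over Corin. Ranking by recovered pileup, added after the data were seen like the GC classes, gave 3 up with ATRA, 1 up and 0 down with Corin, and 0 down for the combination over ATRA. A −log10 q of at least 5 gave a loss of 19.6% with ATRA and 16.5% for the combination over Corin. Lists of equal length gave losses of 24.7% for the combination over DMSO and 14.1% over ATRA. Windows of 400 bp and whole regions each gave 2 regions with a direct repeat in place of 1. The cause of these changes was not tested. The call threshold and the unknown depth limit every statement on presence.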
